A study of Mus musculus with 10 samples.

Results

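The genes of glucose uptake, glycolysis and lactate handling were examined in C2C12 cells, an established mouse muscle precursor line able to fuse into myotubes, that had received a mimic of miR-27a-3p. Any array probe whose gene name in the scanner files was 1 of 35 listed genes belonged to the set, and the brightest probe on average stood for its gene. All 35 were found, of 34650 genes with a probe. The compared groups were C2C12 myoblasts given 150 nM of a mirVana miR-27a-3p mimic and C2C12 myoblasts given 150 nM of a scrambled sequence, each with Lipofectamine 2000 in high-glucose medium with 10% fetal bovine serum. Per the labels, RNA was measured 72 h after transfection and about 60% of the cells were estimated to have been transfected. A mimic array may therefore average cells with and without the mimic, and how this bears on the differences was not tested. No untreated cells were analysed here. RNA was hybridised to Agilent 1-colour arrays, and the 10 files came from 5 array positions of 1 slide, each scanned 2 times. The files of a position were averaged, which gave n = 3 mimic arrays (replicates 1 and 4, 2 and 5, 3 and 6) and n = 2 scrambled arrays (replicates 1 and 3, 2 and 4).

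Glucose enters cells through carriers of the GLUT family and is trapped by hexokinases, and phosphofructokinase then commits it to glycolysis. The pyruvate formed at the end of the pathway is either reduced to lactate, which leaves the cell through monocarboxylate transporters, or taken into mitochondria, where pyruvate dehydrogenase kinases restrain its oxidation. Muscle has its own isoforms of several of these enzymes and relies on GLUT4, the carrier that insulin brings to the cell surface.

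The mature sequence of the microRNA that the mimic supplies is shown because its seed, bases 2 to 8 from the 5′ end, sets which transcripts it can pair with. The seed is in capitals, and miR-27b-3p is set below it as the only other mature mouse microRNA in the RefSeq table (GRCm38.p6) with the same 7 bases. The genes of miR-27a-3p and miR-27b-3p lie on the plus strand, with the mature sequences at chr8:84208727-84208747 and chr13:63300760-63300780, and the mature forms differ at position 19 (C19U, counted from the 5′ end). The sequence of the purchased mimic itself was not given in the sources used here, and no transcript sequence was used to look for target sites.
mmu-miR-27a-3p: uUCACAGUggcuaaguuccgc
mmu-miR-27b-3p: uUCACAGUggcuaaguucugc

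Of the 35 genes, only Slc2a6 passed the test, with a lower level in the mimic arrays, and none of the glycolytic enzymes did. Values are log2 of the processed signal minus the 75th percentile of the file (scaled log2 signal), and a difference is the mimic mean minus the scrambled mean, given ± its standard error. All adjusted p-values come from limma, fitted across all 13128 genes tested with Benjamini-Hochberg adjustment and a threshold of 0.05, and the word rose or fell is kept for genes under it. Of the 35 genes, 32 had a probe clearly over background in 4 or more of the 10 files and were tested, and 26 were above background in all 10. Slc2a6 was the 1 gene that fell and 0 rose, which is 3.12% of the 32, against 671 of all 13128 genes (5.11%), with 308 lower (2.35%) and 363 higher (2.77%). At an unadjusted p under 0.05, 2 of the 32 were lower (6.25%, against 14.1% of all genes) and 5 were higher (15.6%, against 11.2%). The median difference was 0.08 over the 32 genes and -0.05 over all genes tested. The called share of the set was not above that of all genes.

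Negative differences were seen in 15 of the 32 genes (46.9%), against 54.7% of all genes. The range of the differences over the set was wide, from -2.97 for Slc2a6 to 1.19 for Pfkfb3. In 6 of the 32 genes every mimic array lay below both scrambled arrays (18.8%, against 25.7% of all genes), and in 8 every mimic array lay above (25%, against 19.8%). The 2 scrambled arrays stood more than 0.5 apart in 15 of the 32 genes, so the spread within the control group was of the order of many of the differences.

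**Figure D1:**
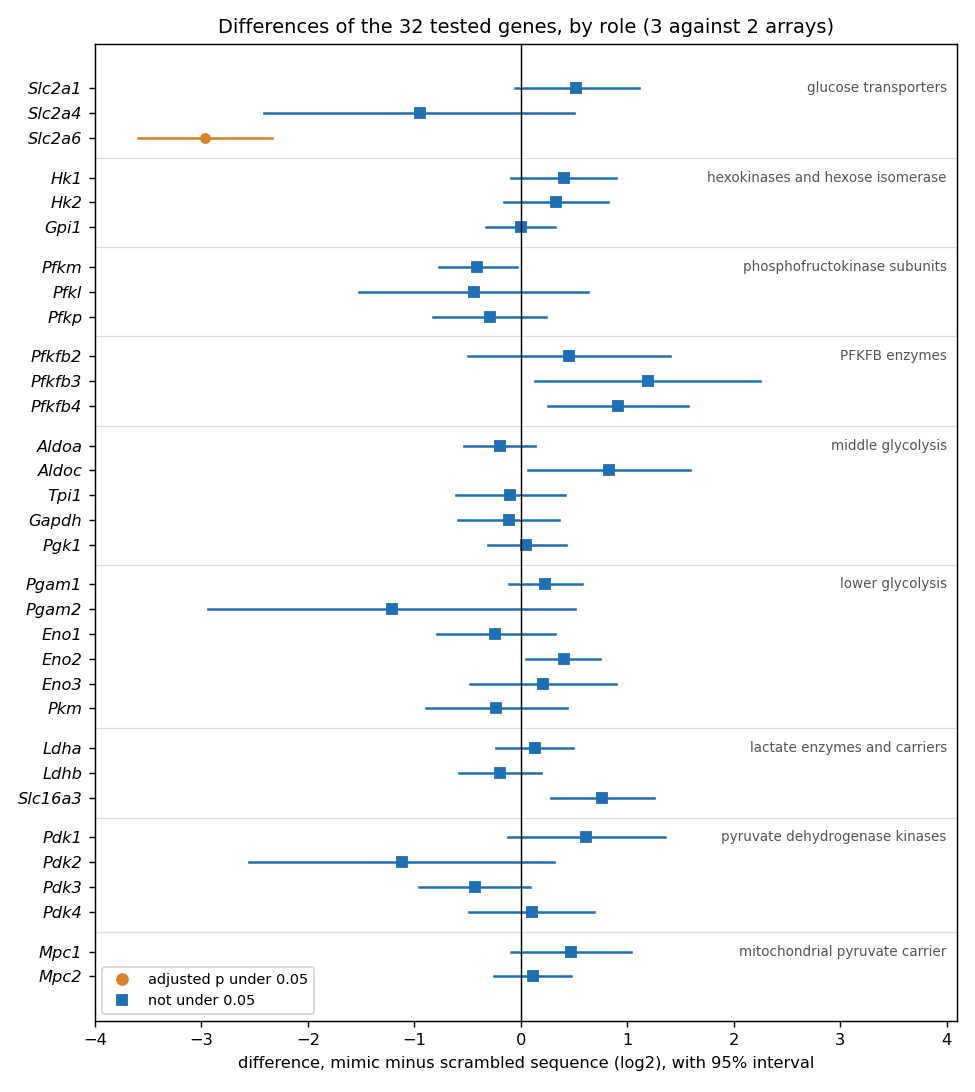
Difference between mimic (n = 3 arrays) and scrambled sequence (n = 2 arrays) for each of the 32 tested genes, in log2 units, grouped by role; points are estimates and lines 95% intervals from limma. Slc2a6 at -2.97 is the only gene with an adjusted p under 0.05, and most other intervals include 0.

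Among the glucose carriers, Slc2a6, which encodes the facilitative hexose transporter GLUT6, fell 7.82-fold. Its scaled log2 signal was -3.91, -4.73 and -4.24 on mimic arrays 1 to 3 and -1.41 and -1.24 on scrambled arrays 1 and 2. All mimic arrays were low, both scrambled arrays were high, and the groups stood more than 2 log2 units apart. The difference was -2.97 ± 0.26 (adjusted p = 0.0072, limma), with a 95% interval from -3.60 to -2.34. The separate scans gave -3.04 and -2.90. The probe lies at chr2:26876891-26876950 on mm9, the build of the probe positions in the files, and it was well above background in 5 of 6 mimic files and 4 of 4 scrambled files. A further Slc2a6 probe was above background in 1 file and was not tested; its difference was -1.39.

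In bulk RNA, fewer cells with a transcript and less of it per cell cannot be told apart. Slc2a6 kept an adjusted p under the threshold when any 1 array was left out, with differences from -3.16 to -2.75. Its adjusted p ran from 1.9e-06 to 0.061 over the alternatives that tested it, and only the highest, with no filter on dim probes and 34518 genes tested, missed the threshold. With probes required to be above background in every file it was not tested. Over the alternatives that tested Slc2a6, its difference ran from -3.16 to -2.27, with -2.27 under a different background correction (normexp).

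The other carriers did not pass the test. Slc2a1, which encodes GLUT1, the basal glucose carrier of most proliferating cells, was at 0.89, 0.89 and 0.53 on the mimic arrays and at 0.57 and -0.07 on the scrambled arrays. The groups overlapped, and the difference was 0.52 ± 0.24 (adjusted p = 0.23, limma). It was 0.84 without scrambled array 1, with an adjusted p of 0.039, and 0.20 without scrambled array 2. Slc2a4, which encodes GLUT4, was dim, at -4.60, -4.19 and -6.01 on the mimic arrays and at -3.45 and -4.51 on the scrambled arrays. The low value on mimic array 3 carried much of its difference of -0.95 ± 0.59, which was -0.42 without that array. Slc2a3, which encodes GLUT3, a high-affinity glucose carrier, was above background in no file.

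Hexokinases phosphorylate glucose and keep it in the cell. Hk1, the ubiquitous hexokinase, differed by 0.40 ± 0.20 at its brightest probe, and Hk2, the form enriched in insulin-sensitive tissue, by 0.33 ± 0.20 (adjusted p = 0.26 and 0.34, limma). Hk1 was at 2.33, 2.32 and 2.08 on the mimic arrays against 2.09 and 1.59, so scrambled array 1 lay inside the mimic range. Without scrambled array 1 its difference was 0.65, with an adjusted p of 0.041, and without scrambled array 2 it was 0.15. The other Hk1 probes gave differences of -0.28 and -0.55, so the direction at Hk1 depends on the probe. Gpi1, the isomerase that makes fructose 6-phosphate, had the narrowest spread of the group, with all 5 arrays between 2.63 and 2.74. Its difference was 0.00 with a 95% interval from -0.33 to 0.32, and its other probes gave -0.02 and 0.01.

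Phosphofructokinase is built from muscle, liver and platelet subunits. Pfkm, the muscle subunit, was at 0.02, 0.12 and -0.08 on the mimic arrays and at 0.32 and 0.53 on the scrambled arrays. Every mimic array lay below both scrambled arrays, but the difference of -0.41 ± 0.15 did not pass the test (adjusted p = 0.17, limma). It was -0.51 without scrambled array 1, with an adjusted p of 0.048. Pfkl, the liver subunit, was at -1.28, -1.16 and -1.15 against -1.54 and 0.03, so the scrambled arrays lay on both sides of the mimic arrays. Its difference of -0.44 ± 0.44 became -1.23 without scrambled array 1, with an adjusted p of 0.013, and 0.34 without scrambled array 2. Pfkp, the platelet subunit, differed by -0.29 ± 0.22.

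The PFKFB enzymes make and break the allosteric activator of phosphofructokinase, and PFKFB3 favours its synthesis. At its brightest probe, Pfkfb3 was at -2.94, -2.82 and -3.33 on the mimic arrays and at -3.49 and -4.95 on the scrambled arrays. A further Pfkfb3 probe, above background in 3 files and not tested, gave a difference of -0.12. Pfkfb4 was at -0.41, -0.34 and -0.71 against -1.00 and -1.80. In both genes all mimic arrays were above both scrambled arrays, and scrambled array 2 was the lowest of the 5. Neither passed the test: the differences were 1.19 ± 0.43 for Pfkfb3 and 0.91 ± 0.27 for Pfkfb4 (adjusted p = 0.16 and 0.11, limma). Without scrambled array 1 they were 1.92 and 1.31, with adjusted p of 0.015 and 0.017, and without scrambled array 2 they were 0.46 and 0.51, with adjusted p of 0.33 and 0.21. Pfkfb2, the form known from heart, was dim and differed by 0.45 ± 0.39, and Pfkfb1, the liver form, was above background in no file.

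**Figure D2:**
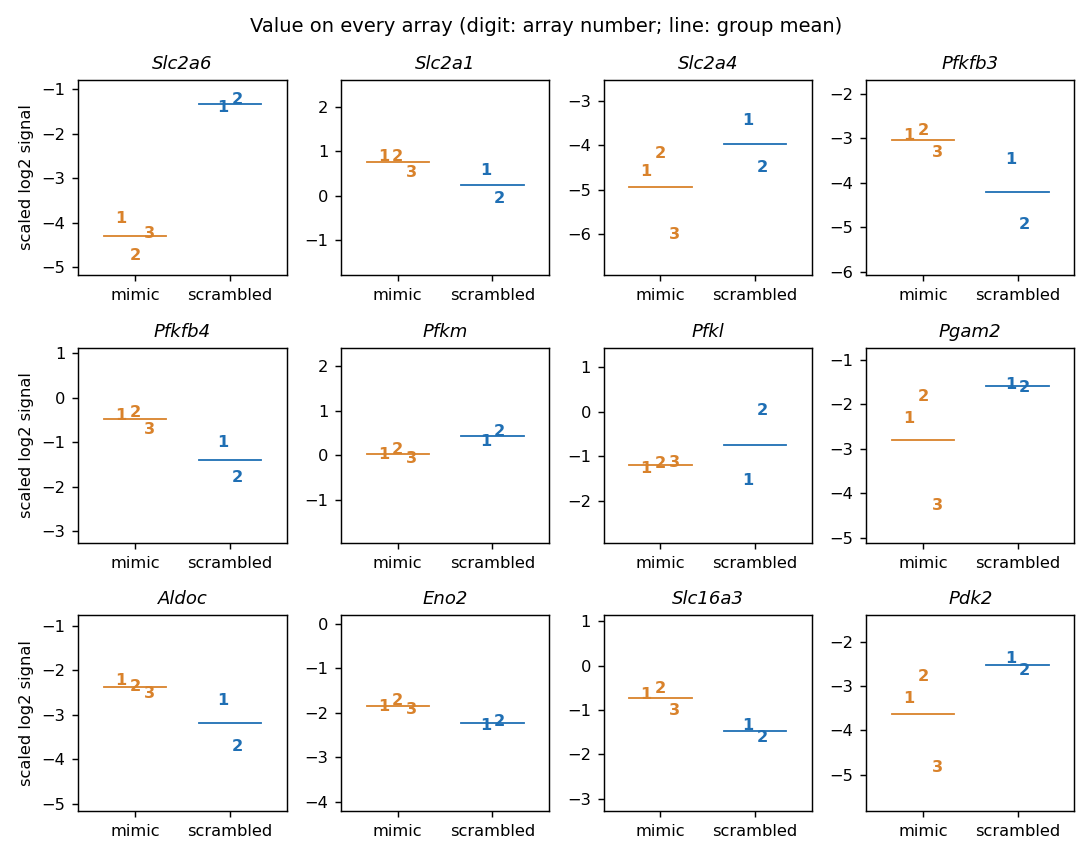
Scaled log2 signal of 12 genes on every array, with each array drawn as its number, mimic arrays at left and scrambled arrays at right of each panel, lines at the group means and the same vertical span in every panel. Slc2a6 shows the widest gap, mimic array 3 is low for Slc2a4, Pgam2 and Pdk2, and the scrambled arrays are far apart for Pfkl and Pfkfb3.

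The enzymes of the middle of the pathway were strongly detected, and none passed the test. Aldoa, the muscle aldolase, differed by -0.20 ± 0.14, Tpi1, the triose phosphate isomerase, by -0.10 ± 0.21, and Pgk1, the first kinase of the pathway that yields ATP, by 0.05 ± 0.15. Gapdh, which oxidises glyceraldehyde 3-phosphate and often serves as a reference transcript, differed by -0.11 ± 0.19. At their brightest probes, the 95% intervals of Aldoa, Tpi1 and Pgk1 excluded a change of 1 log2 unit in either direction. The interval of Gapdh did so only at its brightest probe, which is placed away from the gene, as described below. The other Gapdh probes gave lower values than its brightest, from -0.77 ± 0.31 to -0.13 ± 0.17. Aldoc, the brain aldolase, stood apart, at -2.22, -2.37 and -2.51 on the mimic arrays against -2.68 and -3.70. All mimic arrays were above both scrambled arrays, and the difference was 0.83 ± 0.31 (adjusted p = 0.17, limma). It was 1.34 without scrambled array 1, with an adjusted p of 0.015, and 0.32 without scrambled array 2.

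In lower glycolysis, Pgam1, the general phosphoglycerate mutase, and Pgam2, its muscle form, had differences of opposite sign. Pgam1 was at 2.68, 2.79 and 2.87 on the mimic arrays and at 2.51 and 2.59 on the scrambled arrays, a difference of 0.23 ± 0.14. Pgam2 was at -2.33, -1.82 and -4.29 against -1.56 and -1.63. All mimic arrays were below both scrambled arrays, with mimic array 3 far below the others, and the difference of -1.21 ± 0.70 was -0.47 without mimic array 3. Neither passed the test (adjusted p = 0.33 and 0.32, limma). The difference between these genes was not tested.

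Of the enolases, Eno2, the neuronal form, was at -1.85, -1.73 and -1.93 on the mimic arrays and at -2.28 and -2.19 on the scrambled arrays. Both groups were tight and did not overlap, yet the difference of 0.40 ± 0.14 missed the threshold (adjusted p = 0.16, limma). Eno1, the general enolase, differed by -0.24 ± 0.23, and Eno3, the muscle form, by 0.21 ± 0.28. Pkm, the pyruvate kinase that ends glycolysis, was at 2.54, 2.65 and 2.70 against 2.43 and 3.30. The scrambled arrays lay on both sides of the mimic arrays, and the difference of -0.23 ± 0.27 was -0.67 without scrambled array 1, with an adjusted p of 0.026, and 0.20 without scrambled array 2.

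The lactate carrier Slc16a3 came closest to the threshold among the genes with higher values. It encodes MCT4, which exports lactate from glycolytic cells. Its scaled log2 signal was at -0.65, -0.52 and -1.00 on the mimic arrays and at -1.34 and -1.62 on the scrambled arrays, so all mimic arrays were above both scrambled arrays. The difference was 0.76 ± 0.20, a ratio of 1.70, with an adjusted p of 0.089 (limma). A further probe that overlaps it gave 0.73. Slc16a3 passed under 5 of the 19 alternatives, 1 of them a threshold of 0.1. With all 10 files fitted, scans blocked and positions random, it was at 0.76 (adjusted p = 0.021, limma). Pfkfb4 passed in that fit as well (adjusted p = 0.031, limma). Without mimic arrays 1, 2 and 3, Slc16a3 did not pass (adjusted p = 0.30, 0.25 and 0.13, limma). Slc16a3 was at 0.90 without scrambled array 1 and at 0.63 without scrambled array 2. Its value was between 0.63 and 0.92 under all 19 alternatives.

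The lactate dehydrogenase subunits did not pass the test. Ldha, the subunit of the form that favours lactate production, was between 3.31 and 3.62 on all 5 arrays and differed by 0.13 ± 0.15. Its other probes, which lie upstream, gave -0.27 and -0.33. Ldhb, the heart subunit, differed by -0.20 ± 0.16. Slc16a1, which encodes the lactate carrier MCT1, was above background in no file at its only probe. Of 4 listed partners and other lactate carriers, 2 were tested and 0 passed.

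Pyruvate dehydrogenase kinases divert pyruvate from oxidation. Pdk1 was at -3.66, -4.68 and -4.06 on the mimic arrays and at -4.74 and -4.75 on the scrambled arrays, and 4 of 6 mimic files and 2 of 4 scrambled files had it above background. Pdk2 was at -3.29, -2.79 and -4.83 against -2.39 and -2.65, and its other probe gave -0.72. Pdk1 lay higher on all mimic arrays and Pdk2 lower, with differences of 0.61 ± 0.30 and -1.12 ± 0.58 (adjusted p = 0.26 and 0.28, limma). Pdk2 was -0.53 without mimic array 3. Pdk3 and Pdk4 differed by -0.43 ± 0.21 and 0.10 ± 0.24. Pdk3 was -0.72 without scrambled array 1, with an adjusted p of 0.037, and -0.15 without scrambled array 2. The subunits of the mitochondrial pyruvate carrier, Mpc1 and Mpc2, differed by 0.47 ± 0.23 and 0.11 ± 0.15, and the further Mpc1 probe gave 0.08. Mpc1 was 0.82 without scrambled array 1, with an adjusted p of 0.016, and 0.11 without scrambled array 2. Of 7 tested subunits and phosphatases of pyruvate dehydrogenase, 0 passed.

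Slc2a4, Pgam2 and Pdk2 shared a low value on mimic array 3. Slc2a4 and Pdk2 were above background in neither file of that array, and Pgam2 in both. At the other Pdk2 probe, above background in all 10 files, mimic array 3 was at -4.34, against -3.91 and -3.37 on mimic arrays 1 and 2. Of 25 muscle differentiation markers, mimic array 3 was the lowest mimic array in 15 and the highest in 4, and it lay more than 1 log2 unit below the other mimic arrays in 3, Ckm, Myh8 and Atp2a1. Ckm, the muscle creatine kinase, was at -2.25, -2.44 and -6.27 on the mimic arrays against -1.47 and -1.79, and Myh8, a myosin heavy chain, at -2.32, -1.60 and -6.49 against -1.35 and -2.06. Ckm and Myh8 were each above background in 4 of 6 mimic files. The part of this array in the differences is given by the values without it, above.

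Muscle differentiation markers were lower in the mimic arrays as a list. Of 25 tested, 14 fell and 0 rose, where 2.35% of all genes fell and 2.77% rose, with a median difference of -1.55, against -0.05 for all genes. They included Myog, the differentiation transcription factor, which was at 0.32, 0.46 and 0.50 on the mimic arrays and at 2.22 and 2.83 on the scrambled arrays, with a difference of -2.10 (adjusted p = 0.0093, limma). The others were the fusion genes Tmem8c and Gm7325 (Mymk and Mymx), the contractile genes Myh3, Mylpf, Acta1, Actc1, Actn3, Tnnc1, Tnnc2, Tnni1 and Tnnt1, the calcium-binding Casq2 and the receptor subunit Chrng, with differences from -2.80 to -1.36. The count was 0 without mimic array 1, 1 without mimic array 2, 8 without mimic array 3 and 0 with no filter on dim probes. Of all genes tested, 0.358%, 0.548%, 1.05% and 0.0492% were called in these fits, in the same order. The median of the list stayed between -1.61 and -1.35 with each array left out and under each scaling. Myh7, Myl4 and Myl1, which did not pass, had positive differences of 0.55, 0.31 and 0.18. The mean scaled log2 signal over the 25 was at -1.07, -1.00 and -1.62 on the mimic arrays and at 0.12 and 0.25 on the scrambled arrays. All of these group values run in the direction of the fall in Slc2a6, and their part in it was not tested. Of the muscle forms of the pathway, Slc2a4, Pfkm, Aldoa and Pgam2 had negative differences and Eno3 a positive value of 0.21, and none passed.

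Genes known to be induced by low oxygen, many of them controlled, like glycolytic genes, by hypoxia-inducible factors, were examined beside the pathway. Of 11 tested, 2 rose and 0 fell, where 2.77% of all genes rose and 2.35% fell, with a median of 0.50 against -0.05 for all genes. Ndrg1, a stress-induced gene, was at -0.09, -0.12 and 0.42 on the mimic arrays and at -1.31 and -0.93 on the scrambled arrays, with a difference of 1.19 (adjusted p = 0.046, limma). P4ha1, a collagen prolyl hydroxylase, was at -2.30, -2.37 and -2.24 on the mimic arrays against -3.06 ± 0.09 (SD, n = 2) on the scrambled arrays, with a difference of 0.76 (adjusted p = 0.039, limma). Ndrg1 lost the call whichever array was left out. P4ha1 lost it in each of these fits but the one without scrambled array 1, which rests on 1 control array. The list held 0 calls in either scan alone, in the deposited values and with no filter on dim probes. The median was positive in all of these, from 0.33 to 0.72. The mean over the 11 genes was between -0.83 and -0.80 on the mimic arrays and at -1.24 and -1.35 on the scrambled arrays.

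The neighbouring pathways held few calls. Among 8 tested enzymes of gluconeogenesis and side branches, Pcx, the pyruvate carboxylase that feeds oxaloacetate to mitochondria, fell and was the only call. It was at -3.33, -3.42 and -3.26 on the mimic arrays and at -2.69 and -2.35 on the scrambled arrays, with a difference of -0.82 (adjusted p = 0.048, limma). Pcx lost the call under several alternatives, among them quantile normalization, the percentile over all probes and the fits without any 1 of mimic arrays 1, 2 and 3 or scrambled array 2. The 8 genes of the pentose phosphate pathway, 16 of GLUT4 traffic and insulin signalling, 18 transcriptional regulators of glycolysis, 3 glucose carriers outside the set and 3 further glycolytic isoforms gave 0 calls, with medians of -0.22, -0.14, -0.15, 0.39 and 0.08. At an unadjusted p under 0.05, where 25.3% of all genes lay, these lists held 3, 1, 3, 2 and 1 genes.

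**Figure D3:**
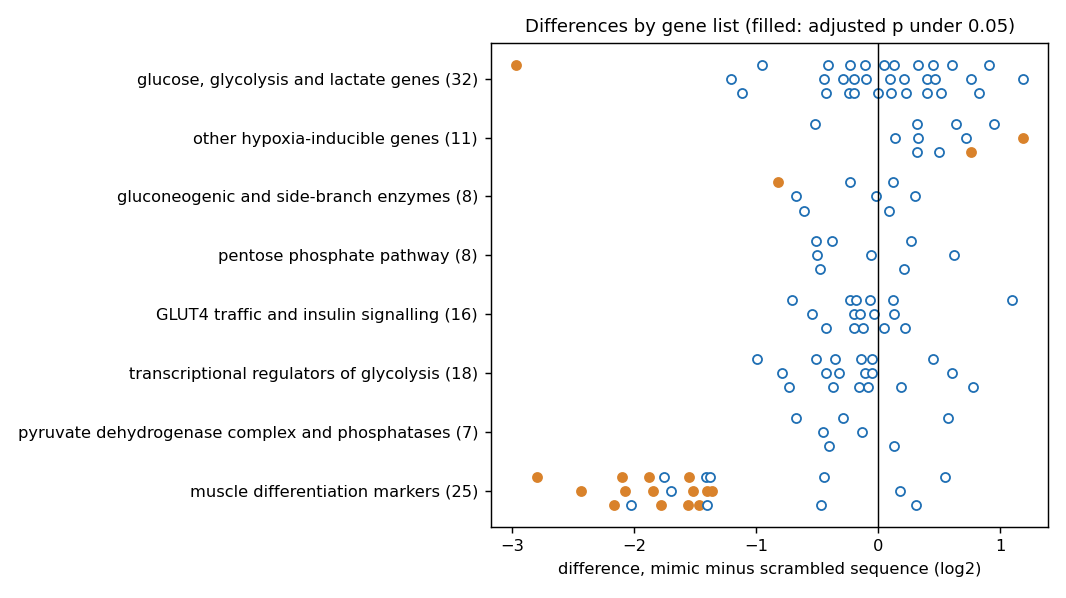
Difference between mimic (n = 3 arrays) and scrambled sequence (n = 2 arrays), in log2 units, for each tested gene of the pathway and of 7 related lists, with the number tested in brackets; filled points have an adjusted p under 0.05. The pathway genes lie around 0 apart from Slc2a6, the hypoxia-inducible genes lie mostly above 0, and 14 of 25 muscle differentiation markers fell.

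The myoblast label was checked against marker genes. Of 6 myoblast markers, 5 (Myod1, Des, Cdh15, Itga7 and Ncam1) were above background in all files, and Myf5 was above it in 1. All 5 adipocyte and all 4 epithelial markers were above background in no file, as were Pecam1, Cdh5 and Tek of the endothelial list and Ptprc of the leukocyte list. Kdr and Cd68 of those lists, and Dcn of the fibroblast list, were above background in all files, and Sox10 of the Schwann and neural list in none. Of the 7 tested markers of other cell types, 1 passed, the fibroblast marker Pdgfra, which fell (adjusted p = 0.031, limma). It was detected in 1 of 6 mimic files and 3 of 4 scrambled files, so the size of its fall is not given. Apart from controls, 27% to 35.3% of spots per file were well above background, and 0 were saturated.

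In several pathway genes with more than 1 probe, the difference varied between probes along the transcript, a comparison chosen after seeing the data. The 6 Gapdh probes placed on chromosome 6 gave differences of -0.77, -0.60, -0.53, -0.44, -0.13 and -0.48 from the most upstream to the last, and scrambled array 2 exceeded scrambled array 1 by 0.41 to 0.94 at all of them. The probe that represents Gapdh here is placed by the files at chr7:59003199-59003257 (mm9), away from the gene, so near-identical copies may share its signal. The most upstream probe gave a lower difference than the last probe for all 5 pathway genes with spaced probes (Gapdh, Hk1, Ldha, Mpc1 and Tpi1), by 0.16 to 0.46. Probes between them did not always follow that order: the middle Hk1 probe gave 0.40 against -0.28 at the last, and the Gapdh probes at -0.44 and -0.13 lay above the last at -0.48. Pfkp, whose brightest probe spans distant blocks and was not counted there, went the other way, with -0.47 at its downstream probe against -0.29. Of 1215 genes with probes at least 200 bases apart, 845 (69.5%) had a lower difference at the upstream probe than at the downstream probe. The median of the upstream minus the downstream difference was -0.19. Over these genes, the upstream minus downstream signal was centred within each gene. Its median was 0.29 on scrambled array 2 and -0.10 to -0.04 on the other 4 arrays. The part of this pattern in the differences above was not tested.

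**Figure D4:**
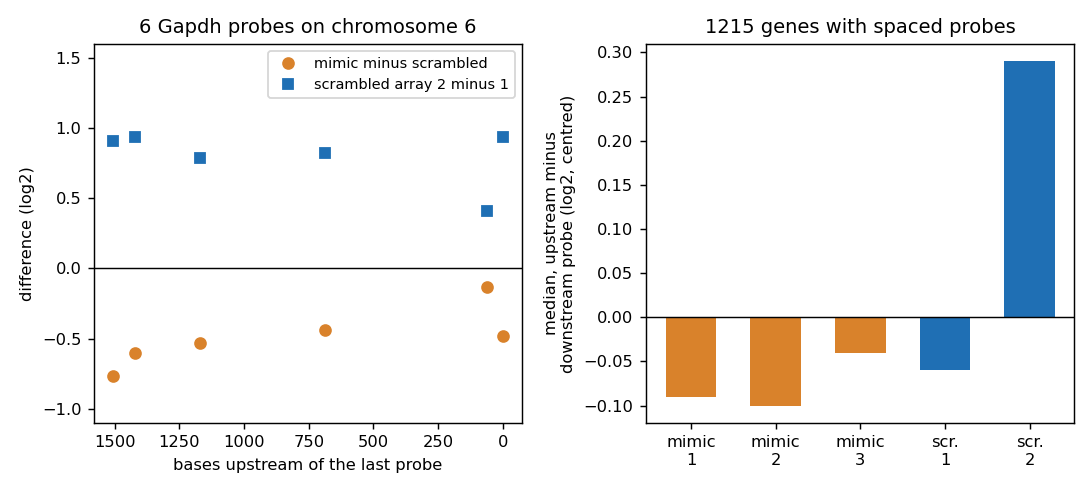
Left: differences in log2 units at the 6 Gapdh probes on chromosome 6, against their distance in bases from the last probe, for mimic minus scrambled arrays (circles) and for scrambled array 2 minus 1 (squares). Right: median over 1215 genes of the upstream minus downstream probe signal, centred within each gene, on each array; scrambled array 2 is at 0.29 and the others between -0.10 and -0.04.

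The number of pathway genes called depended on the arrays used. Without scrambled array 1, 12 of the 32 were called (37.5%: 5 lower and 7 higher), beside 4344 of all genes (33.1%). The lower genes were then Slc2a6, Pfkm, Pfkl, Pkm and Pdk3, and the higher genes Slc2a1, Hk1, Pfkfb3, Pfkfb4, Aldoc, Slc16a3 and Mpc1. With the 10 files taken as separate replicates, 11 of 31 were called (35.5%: 2 lower and 9 higher), beside 34.6% of all genes. In both cases the share of the pathway lay close to the share of all genes. Without scrambled array 2, or mimic array 1, 2 or 3, Slc2a6 was the only call, while the calls over all genes were 560, 47, 72 and 138. With probes required to be above background in every file, 0 pathway genes were called, beside 604 of all genes.

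**Figure D5:**
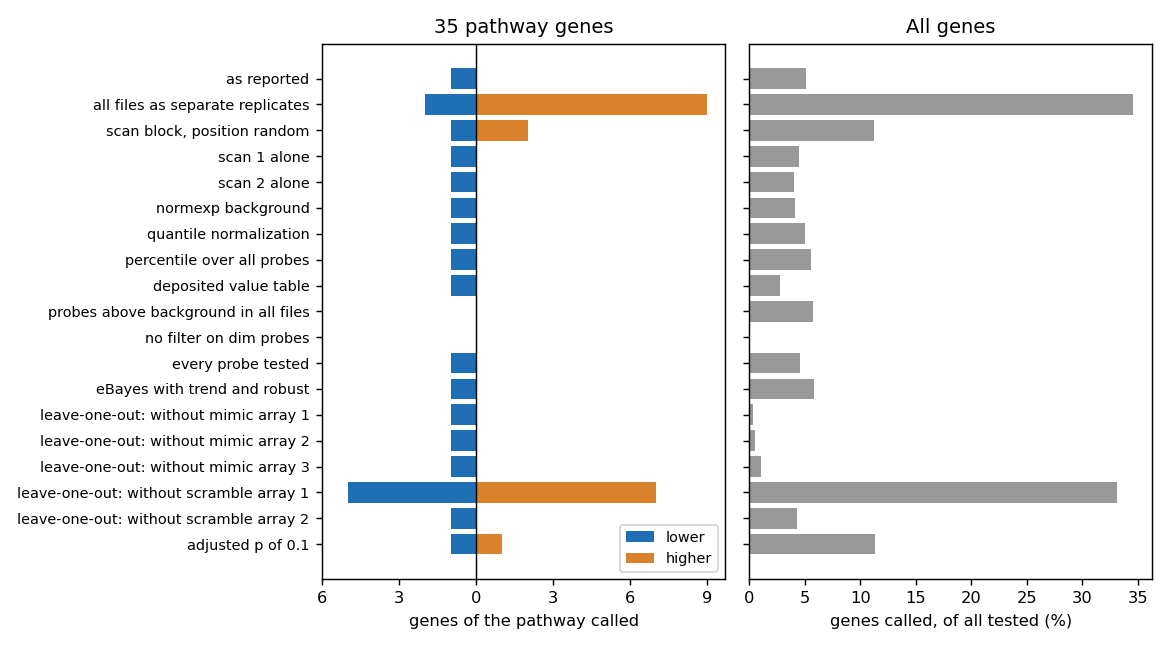
Number of pathway genes called lower (left of 0) and higher (right of 0) and percentage of all tested genes called, as reported and under 18 alternatives. Most alternatives give Slc2a6 alone, while leaving out scrambled array 1 or counting all files separately raises both the pathway count and the percentage of all genes.

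The promoters of the pathway genes were read for motifs of factors known to act on them. The table of RefSeq promoters (GRCm38.p6) held 53 start sites of 33 of the 35 genes, all but Slc2a3 and Slc2a4, and the 250 bases before each start were searched on both strands. ACGTG, the core of the hypoxia-response element, was in 18 of 53 (34%) and in 16.6% of the 32851 promoters in the table. CACGTG, an E-box that contains ACGTG on both strands, was in 6 (11.3%, against 6.02%), and CAGCTG, an E-box bound by muscle regulatory factors, in 6 (11.3%, against 13%). Start sites of 1 gene can overlap, so they are not independent, and a match is a description of letters, not a bound site.

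The promoters below are those of Slc2a6, the gene that fell, of Slc16a3, Pfkfb4 and Pfkfb3, and of Pgam2, the muscle mutase. Slc16a3, Pfkfb4 and Pfkfb3 are among the 8 pathway genes whose mimic arrays were all above both scrambled arrays. The sequences are 250 bases before each start, 5′ to 3′ on the strand of the gene, with matches in capitals. Slc16a3 holds ACGTG 2 times, ending 23 and 10 bases before the start. Both Pfkfb3 starts hold ACGTG, in the second as part of CACGTG. Pgam2 holds CAGCTG ending 120 bases before the start, and Slc2a6 and Pfkfb4 hold none of the 3. Of the rest of the 8 genes, Pgam1 holds ACGTG 1 time, and Aldoc, Eno2, Pdk1 and Mpc1 hold it at no start. Ldha, with a difference of 0.13, holds ACGTG 5 times at 1 start. Any link between the motif and the differences was not tested.
Slc2a6, chr2:27027999-27028248, minus strand: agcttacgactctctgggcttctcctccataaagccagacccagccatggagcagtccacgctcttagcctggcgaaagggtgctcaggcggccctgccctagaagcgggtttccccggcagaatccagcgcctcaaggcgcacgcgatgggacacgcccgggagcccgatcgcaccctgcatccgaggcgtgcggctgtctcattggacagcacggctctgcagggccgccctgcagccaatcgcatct
Slc16a3, chr11:120948817-120949066, plus strand: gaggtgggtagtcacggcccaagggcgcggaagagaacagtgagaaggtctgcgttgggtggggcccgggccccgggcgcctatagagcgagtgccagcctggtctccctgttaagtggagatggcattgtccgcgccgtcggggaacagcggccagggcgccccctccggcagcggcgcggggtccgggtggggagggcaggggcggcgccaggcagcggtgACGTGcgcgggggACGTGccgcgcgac
Pfkfb4, chr9:108991652-108991901, plus strand: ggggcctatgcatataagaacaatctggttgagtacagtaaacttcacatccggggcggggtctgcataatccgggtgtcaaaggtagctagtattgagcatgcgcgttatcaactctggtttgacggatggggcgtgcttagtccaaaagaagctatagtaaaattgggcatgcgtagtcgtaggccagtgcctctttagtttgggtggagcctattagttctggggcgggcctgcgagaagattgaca
Pfkfb3, chr2:11553930-11554179, minus strand: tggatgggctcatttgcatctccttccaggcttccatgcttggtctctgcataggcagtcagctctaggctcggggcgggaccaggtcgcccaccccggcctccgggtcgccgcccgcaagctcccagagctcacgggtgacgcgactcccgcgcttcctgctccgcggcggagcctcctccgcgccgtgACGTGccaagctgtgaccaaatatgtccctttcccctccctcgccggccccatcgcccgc
Pfkfb3, chr2:11502091-11502340, minus strand: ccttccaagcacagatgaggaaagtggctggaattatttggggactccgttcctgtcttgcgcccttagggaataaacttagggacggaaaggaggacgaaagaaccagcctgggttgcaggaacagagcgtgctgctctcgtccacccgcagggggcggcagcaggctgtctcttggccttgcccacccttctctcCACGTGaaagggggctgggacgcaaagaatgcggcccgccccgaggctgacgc
Pgam2, chr11:5803797-5804046, minus strand: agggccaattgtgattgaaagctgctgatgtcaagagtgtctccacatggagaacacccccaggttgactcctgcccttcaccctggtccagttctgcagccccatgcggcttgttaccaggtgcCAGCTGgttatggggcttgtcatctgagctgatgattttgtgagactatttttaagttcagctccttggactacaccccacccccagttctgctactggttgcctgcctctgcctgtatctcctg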

How the data were processed

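The values used were linear spot intensity from the deposited scanner output, which the file headers give as the processed signal of Agilent Feature Extraction 12.0.0.7, while the submitters' processing notes name 10.7.3.1. A deposited table of probe intensity, with scaling not given in the sources used here, served as an alternative: its columns had medians of 192.1 to 294.1 and followed the scanner signal in order (Spearman 0.9987 or more), linear and not centred. Control spots and 157 to 270 marked spots a file were left out. The log2 intensity was scaled by the 75th percentile of 13029 probes above background in all files. Of 13178 genes passing the filter, 13128 had values on all arrays. Tests used limma 3.58.1 in R 4.3.3 (3 residual and 2.92 prior degrees of freedom). In data simulated for this comparison (13128 genes, 200 changed), 35% of changes of 1 log2 unit and 88% of changes of 3 were called, with 8 false calls. The simulated noise was independent between genes and held no pattern shared across an array, so these rates may not carry over.

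Files of 1 position correlated at 0.65 to 0.91 in their deviations, although the labels describe independent transfections; how 1 position carries 2 samples is not shown. The p-values therefore measure spread between arrays, which may be technical, and the number of arrays limits the precision. The genes and lists were chosen with earlier results of these data known. Every gene of the set was named; of related lists, genes past the threshold and, chosen after their values were seen, Ckm, Myh8 and Atp2a1. Gene names are those in the files; 33 of 35 matched RefSeq by accession.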

Additional observations from a re-analysis of the deposited data

How the results depend on the processing

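Set against the alternatives gene by gene, 551 values kept direction and side of the threshold, 12 changed sign by less than 1 standard error of the reported difference without passing (Gapdh up to 0.06, Gpi1 up to 0.10, Tpi1 up to 0.06, Pdk4 at -0.11 and Pgk1 at -0.07), 25 passed it anew, 1 lost it (Slc2a6 with no filter on dim probes) and 9 reversed by more than that. These 9, none past the threshold and the cause not tested, were 0.16 for Gpi1 with the percentile over all probes, 0.04 for Aldoa and 0.09 for Gapdh with quantile normalization, and those without scrambled array 2. Leaving out 1 array moved Pfkl between -1.23 and 0.34, Tpi1 between -0.40 and 0.20, Gapdh between -0.36 and 0.13, Eno1 between -0.55 and 0.08, Eno3 between -0.12 and 0.54 and Pkm between -0.67 and 0.20; the bound of opposite sign to the reported value is the one without scrambled array 2 in each. The main counts were 1 pathway gene lower, 0 higher and 671 genes in all. All files as separate replicates gave 2, 9 and 4509, and scan as a block with position as a random block gave 1, 2 and 1457. The replicate block gave 1, 1 and 1947, although same-numbered samples of the groups correlated at only -0.45 to 0.35 and 1 of 4 matched its own number best, so the numbers do not show a pairing. A threshold of 0.1 gave 1, 1 and 1483, the deposited values 396 genes in all, probes above background in all files 0 lower, and no filter 0 lower and 17 in all. Leaving out 1 array gave 1 to 5 lower, 0 to 7 higher and 47 to 4344 in all: 47, 72 and 138 without mimic arrays 1, 2 and 3, 4344 without scrambled array 1 and 560 without scrambled array 2. With the percentile over all probes the median of all genes was 0.11 and of the pathway 0.24, and 31.8% of calls were lower against 45.9%; quantile normalization gave 36.8%. Genes above background in no file have no measured difference.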
